A study of Mus musculus with 12 samples.

Results

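Coagulation and fibrinolysis genes were followed in whole lung of mice given bleomycin, with and without an oral herbal preparation. The genes were the 8 rows of the expression table named F3, F13a1, Thbd, Procr, Tfpi, Plau, Plat and Plaur, of 56980 genes in the table, and all 8 passed the filter on low counts that kept 17827 genes. They were chosen by name and not by their values, though with earlier results of these data known.

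Polyadenylated RNA of lung tissue from male C57BL/6 mice aged 6 to 8 weeks was sequenced in 12 libraries, 4 in each of 3 groups. HBG mice received bleomycin, a drug that injures the lung and is used to produce fibrosis, instilled once through the trachea at 5 mg/kg, together with Huashibaidu granules at 7 g/kg by mouth. Model mice received the same dose of bleomycin with distilled water, and Control mice received distilled water, with no sham instillation mentioned in the labels. The end day in the labels was day 28 for all 3 groups. The labels disagree on the granules: the series text starts them a week before bleomycin and ends at day 28, while the sample text starts them on day 7 for 14 days. The labels name no separate animals for the 4 libraries of a group, so a p-value here speaks only of library-to-library spread, part of which could be technical. A library summed to between 17979863 and 20752001 estimated counts in HBG, between 19230806 and 22622406 in Model and between 18864759 and 27150787 in Control. The 8 genes had between 108 and 21306 counts in a library. The summed level of 6 type II alveolar markers, none at 0, was 12040 to 21060 CPM (each count scaled to the size of its library) in HBG, 18280 to 24490 CPM in Model and 17330 to 24890 CPM in Control. Markers of cardiac muscle were present in every library too, at 300.2 to 2999 CPM in HBG, 313.3 to 2884 CPM in Model and 737.6 to 4965 CPM in Control.

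Coagulation starts when tissue factor (F3) on a cell binds factor VII, and it ends with thrombin cutting fibrinogen to fibrin, which factor XIII (F13a1 encodes its A subunit) crosslinks. Tissue factor pathway inhibitor (Tfpi) blocks the first step, while thrombomodulin (Thbd) and the endothelial protein C receptor (Procr) turn thrombin towards activating protein C, an anticoagulant. Fibrin is removed by plasmin, which urokinase (Plau) and tissue plasminogen activator (Plat) release from plasminogen. Plaur, the urokinase receptor, holds urokinase on the cell surface. In injured lung, fibrin deposits in the airspaces are a known feature, and the endothelium is a main source of Thbd and Tfpi.

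None of the 8 genes passed the test between any pair of groups. In Model against Control, 0 of 8 passed the edgeR quasi-likelihood test (Benjamini-Hochberg adjusted p from 0.431 to 0.985), where 0.348% of all genes tested passed. In HBG against Model, 0 of 8 passed (adjusted p = 1 for each), where 0% of all genes passed. In HBG against Control, 0 of 8 passed (adjusted p from 0.777 to 0.988), where 0.151% of all genes passed. At an unadjusted p under 0.05 the count was also 0 of 8 in each comparison by edgeR, against 11.7%, 2.43% and 8.25% of all genes in the same order. DESeq2 and limma-voom with sample quality weights likewise called 0 of 8 in each comparison. Of the genes with an adjusted p, DESeq2 called 2.12% in Model against Control, 0.00876% in HBG against Model and 0.976% in HBG against Control, and limma-voom 6.05%, 0% and 0.567% in the same order. At an unadjusted p under 0.05 DESeq2 counted 1, 0 and 0 of the 8, against 7.47%, 1.69% and 5.86% of the 34265 genes to which it gave a p. DESeq2 was run without the filter on low counts, so its shares cover more genes than those of edgeR and limma-voom. Limma-voom counted 3, 1 and 0 of the 8, against 24.6%, 14.8% and 9.87% of all genes. The groups overlapped for every one of the 8 genes in every comparison, whereas they stood apart for 8.72% of all genes in Model against Control, 1.13% in HBG against Model and 6.33% in HBG against Control. The median log2 fold change of the 8 was 0.13 in Model against Control, -0.13 in HBG against Model and 0.058 in HBG against Control, against 0.0089, 0.00061 and 0.0061 over all genes tested. The comparisons share groups, so their values are not independent of each other.

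**Figure D1:**
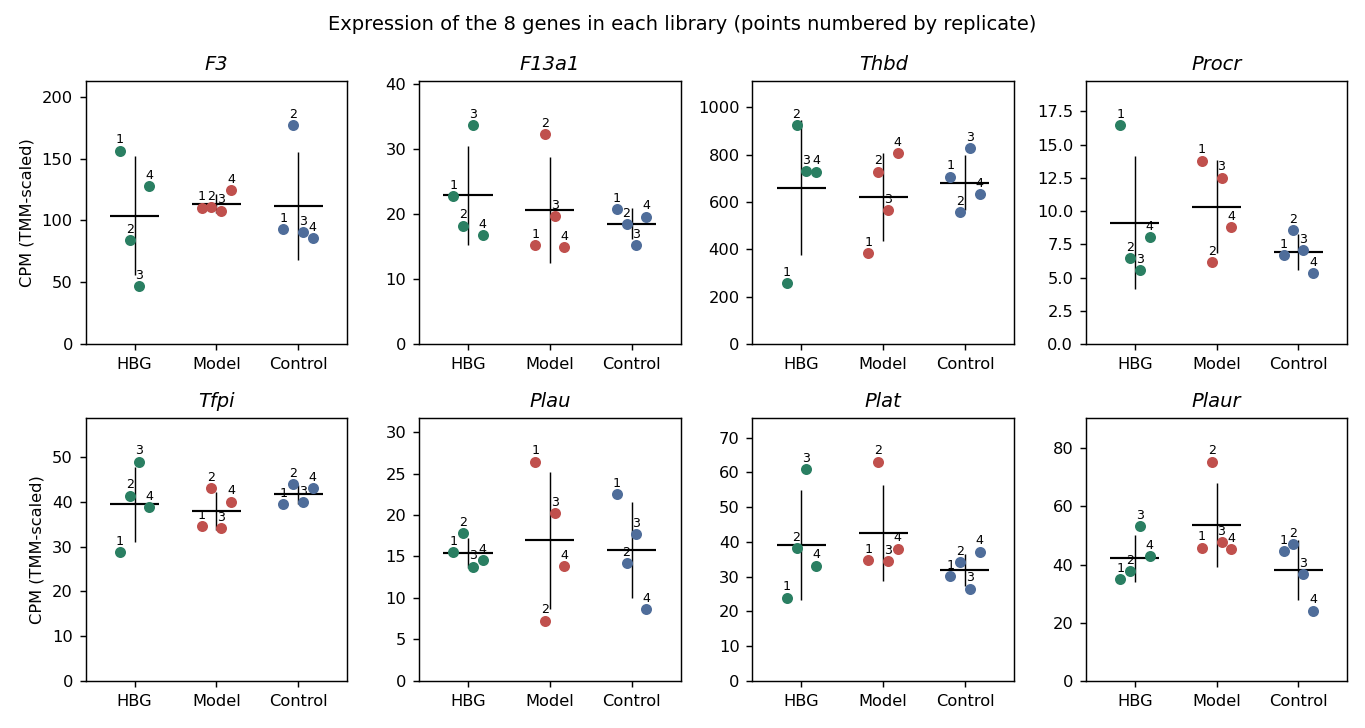
Level of each of the 8 genes in TMM-scaled CPM (y axes, from 0) by group (x axes), with 1 point per library numbered by replicate, a horizontal line at the group mean and a vertical line of 1 SD either side (n = 4 libraries a group). The groups overlap for all 8 genes, and single libraries such as HBG 1 for Thbd at 259 CPM, Model 2 for Plaur at 75.4 CPM and Control 2 for F3 at 177 CPM lie away from the rest of their group.

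Per kilobase of transcript, which allows genes to be compared, Thbd was the most abundant of the 8. It averaged 176 ± 50.7 CPM per kilobase (SD over the 12 libraries) and F3 58.6 ± 18.4. Thbd exceeded F3 in 11 of 12 libraries and F3 exceeded Plaur in 11 of 12. Plaur at 29.7 ± 8.17 and Tfpi at 26.6 ± 3.55 CPM per kilobase were neighbours whose ranges overlapped, with Plaur above Tfpi in 9 of 12 libraries. Plat at 15.0 ± 4.78 CPM per kilobase lay below Tfpi and above Plau in all 12. Plau at 6.85 ± 2.30, Procr at 5.51 ± 2.24 and F13a1 at 5.23 ± 1.58 CPM per kilobase were the lowest and did not separate beyond their spread: Plau exceeded Procr in 10 libraries and Procr exceeded F13a1 in 7.

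F3, which encodes tissue factor, the cell-bound trigger of coagulation, had almost the same mean in the 3 groups. It was at 156, 84.0, 47.0 and 128 CPM in HBG libraries 1 to 4, at 110.5, 111, 108 and 125 CPM in Model and at 93.0, 177, 90.6 and 85.9 CPM in Control. The 4 Model libraries lay close together, inside the wider ranges of HBG and Control. The mean was 104 ± 48.1 CPM in HBG, 114 ± 7.63 CPM in Model and 112 ± 43.8 CPM in Control (SD, 4 libraries each). The log2 fold change was 0.024 ± 0.33 (SE) in Model against Control (edgeR adjusted p = 0.985) and -0.13 ± 0.33 in HBG against Model (adjusted p = 1). The 95% interval of the first ran from 0.621-fold to 1.67-fold. Control 2 raised the Control mean, and without it the log2 fold change in Model against Control was 0.33 (edgeR adjusted p = 0.817). Control 2 also had the highest summed level of 12 immediate early and heat shock genes, 5529 CPM against 1137 to 2166 CPM in the other Control libraries, with 975 to 1610 CPM in HBG and 955.4 to 1433 CPM in Model. The heat shock genes of that list, Hspa1a and Hspa1b, were instead highest in Control 3, at 77.5 and 124 CPM. In Control 2 they were at 22.7 and 25.8 CPM. No gene of that list was at 0 in any library, and the part of the list in the F3 level was not tested.

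Upstream sequence was at hand for 5 of the 8 genes in the RefSeq promoter table (GRCm38.p6), and 3 of them, F3, Plaur and Procr, held the letters TGANTCA, the consensus of the AP-1 factors Fos and Jun, on either strand. Of the 32851 entries in that table, 6.75% hold these letters in the 250 bases before the gene start, and 32.7% hold GGGCGG, the GC box. The 3 sequences are shown because of Fos, an immediate early gene. Fos ranged from 27.3 CPM in HBG 3 to 1097 CPM in Control 2. F3 had its lowest and its highest level in the same pair of libraries. In HBG 1 Fos was at 332.3 CPM and F3 at 156 CPM. In Control 3 they were at 198.6 and 90.6 CPM. Jun was highest in Control 2 too, at 622.3 CPM. It was at 293 CPM in HBG 3 and lowest in Model 1, at 160.4 CPM. HBG 4 and Model 4, next in F3 at 128 and 125 CPM, had Fos at 74.5 and 53.8 CPM. Summed cardiac muscle markers were highest in Control 2, HBG 1, Model 4 and HBG 4, at 4965, 2999, 2884 and 2757 CPM. These were also the libraries highest in F3. HBG 3 had the lowest cardiac sum, 300.2 CPM. Control 3 had a cardiac sum of 2608 CPM with F3 at 90.6 CPM. The part of Fos, Jun or cardiac muscle content in the F3 level was not tested. Letters of other factors were searched too. Those of NF-kB, which 45.8% of entries hold, occurred 4 times in F3, 3 times in Procr and 2 times in Plaur. Each run gives the 250 bases before the gene start, 5′ to 3′ on the plus strand, and the capitals mark TGANTCA and GGGCGG on either strand. In Plaur 2 of the 3 GC boxes overlap a match to the EGR1 letters GCGGGGGCG.
F3, chr3:121723287-121723536: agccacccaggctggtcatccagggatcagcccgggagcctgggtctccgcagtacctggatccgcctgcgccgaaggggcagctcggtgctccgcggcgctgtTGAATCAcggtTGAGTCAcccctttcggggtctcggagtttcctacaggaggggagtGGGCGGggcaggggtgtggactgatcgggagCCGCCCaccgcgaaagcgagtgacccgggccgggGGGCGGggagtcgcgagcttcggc
Plaur, chr7:24462233-24462482: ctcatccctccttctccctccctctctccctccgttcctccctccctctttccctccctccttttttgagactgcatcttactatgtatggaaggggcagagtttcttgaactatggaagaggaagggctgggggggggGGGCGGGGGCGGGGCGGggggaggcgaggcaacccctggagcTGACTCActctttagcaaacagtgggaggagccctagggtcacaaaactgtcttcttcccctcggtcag
Procr, chr2:155750967-155751216: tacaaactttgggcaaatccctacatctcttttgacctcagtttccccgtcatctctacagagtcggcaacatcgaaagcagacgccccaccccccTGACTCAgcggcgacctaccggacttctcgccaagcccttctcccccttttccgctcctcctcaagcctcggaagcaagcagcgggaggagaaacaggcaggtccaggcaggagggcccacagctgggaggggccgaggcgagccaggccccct
F3 held the AP-1 letters starting 146 and 135 bases before the gene start, Plaur 69 bases and Procr 154 bases before it. Both Tfpi entries and both F13a1 entries held none. A match of letters is a description of the sequence and not a binding site. Plaur and Procr did not have their highest level in Control 2, as the values below show.

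F13a1, the A subunit of the fibrin-crosslinking factor XIII, is known in tissue from macrophages and in blood from platelets. It was at 22.8, 18.3, 33.7 and 16.8 CPM in HBG, at 15.3, 32.4, 19.8 and 15.0 CPM in Model and at 20.8, 18.5, 15.3 and 19.6 CPM in Control. HBG 3 and Model 2 were the highest of the 12 libraries, and the other 10 lay together whatever their group. The mean was 22.9 ± 7.67 CPM in HBG, 20.6 ± 8.15 CPM in Model and 18.6 ± 2.40 CPM in Control, with log2 fold changes of 0.15 ± 0.27 (SE) in Model against Control (edgeR adjusted p = 0.872) and 0.15 ± 0.27 in HBG against Model (adjusted p = 1). Without Model 2 the first was -0.15, and without HBG 3 the second was -0.095. Summed macrophage markers, all 8 present in every library, were 201.5 to 541.2 CPM in HBG, 178.1 to 535.5 CPM in Model and 170.0 to 215.8 CPM in Control. HBG 3, the highest in F13a1, also had the highest macrophage sum, 541.2 CPM, and Model 2, the next in F13a1, the third highest, 379.9 CPM. Model 1 had the second highest sum, 535.5 CPM, with F13a1 at 15.3 CPM. All 6 platelet markers were present. Their sum was 41.5 to 64.7 CPM in HBG, 24.7 to 81.8 CPM in Model and 37.9 to 58.5 CPM in Control. Summed monocyte markers were 451.2 to 1367 CPM in HBG, 739.2 to 1388 CPM in Model and 469.2 to 775.1 CPM in Control. All 6 were present in every library. Model 2 and HBG 3 had the highest monocyte sums, 1388 and 1367 CPM, of which Ace alone made 1158 and 1059 CPM. The part of any of these cell types in the F13a1 level was not tested.

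Of the anticoagulants, Thbd had means close to each other in the 3 groups. Thrombomodulin, its product, binds thrombin on endothelium. Thbd was at 259, 925, 731 and 728 CPM in HBG, at 386, 728, 565 and 807 CPM in Model and at 707, 558, 827 and 633 CPM in Control. HBG 1 was the lowest and HBG 2 the highest of all 12, so HBG alone spanned the other groups. The mean was 661 ± 283 CPM in HBG, 621 ± 187 CPM in Model and 681 ± 115 CPM in Control. Its log2 fold change was -0.13 ± 0.33 (SE) in Model against Control (edgeR adjusted p = 0.913), 0.089 ± 0.33 in HBG against Model (adjusted p = 1) and -0.044 ± 0.33 in HBG against Control (adjusted p = 0.983). In these bulk samples, fewer cells of a type and less RNA per cell cannot be told apart. The 8 endothelial markers, none at 0, summed to 1147 to 3990 CPM in HBG, 1713 to 3931 CPM in Model and 1964 to 2797 CPM in Control. HBG 1 and Model 1 had the lowest sums, 1147 and 1713 CPM, and also the lowest Thbd. The upper end was ordered differently. HBG 3 and Model 2 had the highest sums, 3990 and 3931 CPM, with Thbd at 731 and 728 CPM. HBG 2, the highest in Thbd, had a sum of 2811 CPM. The part of endothelial content in the Thbd level was not tested.

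Procr, the receptor that presents protein C to the thrombin-thrombomodulin complex, had a higher mean in both bleomycin groups than in Control, without passing the test. It was at 16.5, 6.48, 5.57 and 8.03 CPM in HBG, at 13.8, 6.15, 12.5 and 8.82 CPM in Model and at 6.68, 8.60, 7.06 and 5.32 CPM in Control. HBG 1, Model 1 and Model 3 lay well above every Control library and Model 4 just above the highest of them, whereas HBG 2, HBG 3, HBG 4 and Model 2 lay within the Control range. The mean was 9.14 ± 5.00 CPM in HBG, 10.3 ± 3.49 CPM in Model and 6.92 ± 1.35 CPM in Control. The log2 fold change was 0.58 ± 0.35 (SE) in Model against Control, the largest of the 8 genes in that comparison (edgeR adjusted p = 0.541), with a 95% interval from 0.882-fold to 2.53-fold. It was -0.17 ± 0.35 in HBG against Model (adjusted p = 1) and 0.40 ± 0.35 in HBG against Control (adjusted p = 0.777). Without HBG 1 the last 2 were -0.63 and -0.048. With limma-voom and sample quality weights, Procr in Model against Control had an adjusted p of 0.0546, the smallest that any of the 8 genes reached under any alternative tried.

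Tfpi, the inhibitor of the tissue factor and factor VII complex, was the steadiest of the 8 genes. It was at 28.7, 41.4, 49.0 and 38.9 CPM in HBG, at 34.7, 43.1, 34.2 and 40.1 CPM in Model and at 39.6, 44.0, 40.0 and 43.2 CPM in Control. The 4 Control libraries lay close together, while HBG held both the lowest and the highest library. The mean was 39.5 ± 8.39 CPM in HBG, 38.0 ± 4.31 CPM in Model and 41.7 ± 2.22 CPM in Control. Its log2 fold change was -0.13 ± 0.14 (SE) in Model against Control (edgeR adjusted p = 0.761), with a 95% interval from 0.735-fold to 1.13-fold. In HBG against Model it was 0.056 ± 0.14 (adjusted p = 1), with an interval from 0.837-fold to 1.29-fold. These are the narrowest intervals among the 8 genes.

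**Figure D2:**
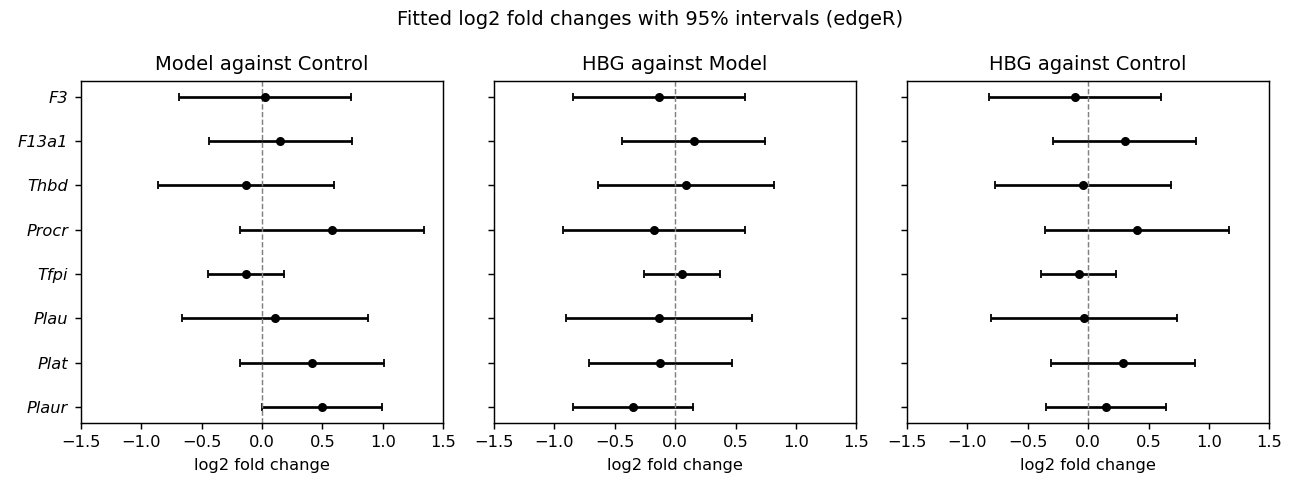
Fitted log2 fold change (x axes) of the 8 genes (rows) in the 3 comparisons, as points with 95% intervals from edgeR. Every interval includes 0, and that of Plaur in Model against Control, from -0.0038 to 0.99, only just does.

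Of the fibrinolytic genes, Plau encodes urokinase, the plasminogen activator of cell surfaces. It was at 15.6, 17.8, 13.8 and 14.5 CPM in HBG, at 26.4, 7.26, 20.2 and 13.8 CPM in Model and at 22.5, 14.2, 17.7 and 8.68 CPM in Control. HBG was tight and lay inside the ranges of both other groups, and Model 2 and Control 4 were the lowest. The mean was 15.4 ± 1.76 CPM in HBG, 16.9 ± 8.25 CPM in Model and 15.8 ± 5.82 CPM in Control. The log2 fold change was 0.10 ± 0.35 (SE) in Model against Control (edgeR adjusted p = 0.94) and -0.14 ± 0.35 in HBG against Model (adjusted p = 1). Both turned direction without Model 1, to -0.19 and 0.16, and the first also without Control 4, to -0.11.

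Plat, the tissue plasminogen activator that vessel walls release, had higher means in both bleomycin groups. It was at 23.9, 38.2, 60.9 and 33.2 CPM in HBG, at 34.7, 63.1, 34.4 and 38.1 CPM in Model and at 30.2, 34.1, 26.6 and 37.2 CPM in Control. Model 2 and HBG 3 stood far above the other 10 libraries, which ranged up to 38.2 CPM. The mean was 39.1 ± 15.7 CPM in HBG, 42.6 ± 13.8 CPM in Model and 32.0 ± 4.62 CPM in Control. Its log2 fold change was 0.41 ± 0.27 (SE) in Model against Control (edgeR adjusted p = 0.587), and 0.16 without Model 2. In HBG against Model it was -0.12 ± 0.27 (adjusted p = 1), 0.13 without Model 2 and 0.052 without HBG 1. In HBG against Control it was 0.29 ± 0.27 (adjusted p = 0.795), and -0.010 without HBG 3.

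Plaur, the urokinase receptor, found mainly on myeloid and activated epithelial cells, came nearest to a difference between Model and Control by edgeR. It was at 34.9, 37.8, 53.3 and 42.9 CPM in HBG, at 45.9, 75.4, 47.9 and 45.4 CPM in Model and at 44.5, 47.0, 36.7 and 24.2 CPM in Control. All 4 Model libraries exceeded the Control mean and all 4 HBG libraries lay below the Model mean, yet Model 1 and Model 4 were below the highest Control library. The mean was 42.2 ± 8.09 CPM in HBG, 53.6 ± 14.6 CPM in Model and 38.1 ± 10.2 CPM in Control. The log2 fold change was 0.49 ± 0.23 (SE) in Model against Control (edgeR adjusted p = 0.431), -0.35 ± 0.23 in HBG against Model (adjusted p = 1) and 0.15 ± 0.23 in HBG against Control (adjusted p = 0.881). Without Model 2 the first 2 were 0.28 and -0.14. Model 2 also had the highest summed level of 6 neutrophil markers, 559.5 CPM, and HBG 3, the second highest in Plaur, the second highest sum, 256.3 CPM. The other libraries were ordered differently. Control 4, the lowest in Plaur at 24.2 CPM, had a neutrophil sum of 124.4 CPM. Model 1 had the lowest neutrophil sum, 29.7 CPM, with Plaur at 45.9 CPM. None of the neutrophil markers was at 0, and 5 of the 6 passed the filter. The sums of the groups were 30.2 to 256.3 CPM in HBG, 29.7 to 559.5 CPM in Model and 44.5 to 169.9 CPM in Control, and their part in the Plaur level was not tested.

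The libraries varied along lines that the groups did not follow. The 3 libraries highest in Procr, HBG 1, Model 1 and Model 3, were the 3 lowest in Tfpi. Model 2 and HBG 3 were the highest of the 12 in each of Plat, F13a1 and Plaur. HBG 3 also had the highest Tfpi and the lowest F3, and HBG 1 the highest Procr, the lowest Thbd, Tfpi and Plat, and the second highest F3. Model 2 and HBG 3 had the highest endothelial sums as well, 3931 and 3990 CPM. Not every gene of that list was high there. Cldn5 was at 265 CPM in Model 2 and 263 CPM in HBG 3, below all Control libraries. The same libraries also had the highest fibroblast sums, 2195 and 2209 CPM, and erythrocyte sums, 5657 and 4450 CPM. Control 4 and Control 1 were close to HBG 3 in erythrocyte sum, at 4398 and 4381 CPM. The monocyte and neutrophil sums of Model 2 and HBG 3 were the highest too. The part of any of these lists in their levels was not tested.

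**Figure D3:**
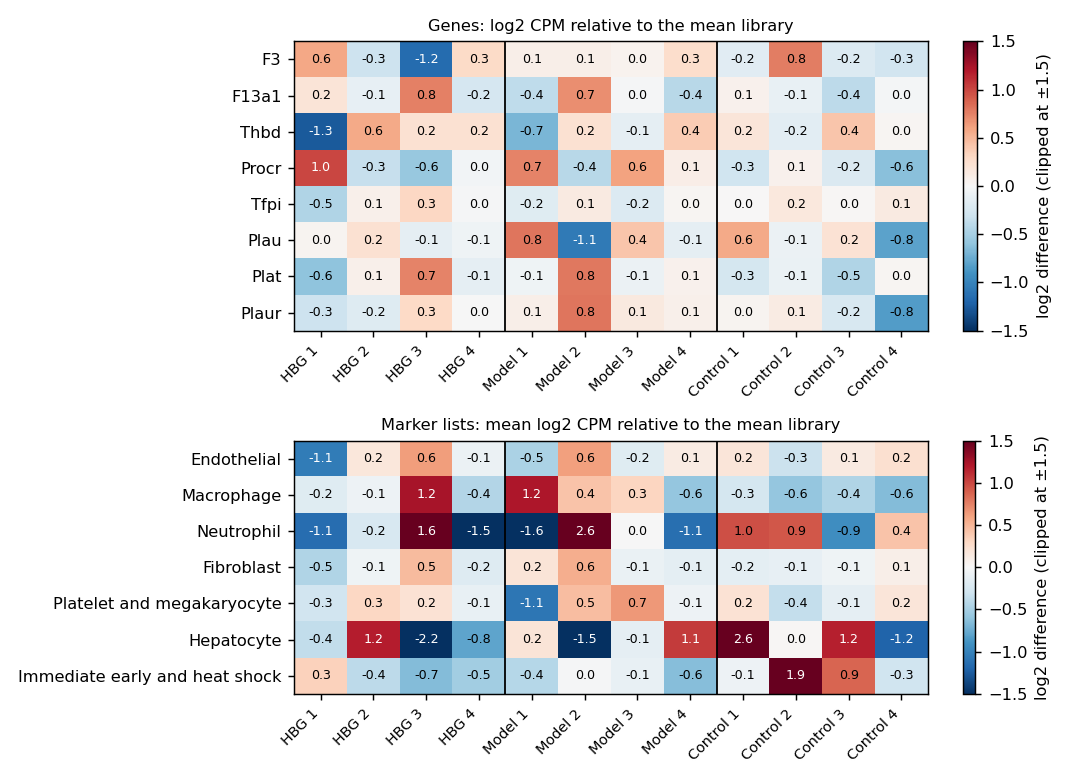
Upper panel: log2 CPM of each of the 8 genes (rows) in each library (columns, grouped as HBG, Model and Control), relative to the gene's mean over the 12 libraries. Lower panel: mean log2 CPM of 7 marker lists on the same scale, where colours are clipped at 1.5 either side of 0 and numbers are not; Model 2 and HBG 3 resemble each other in Plat, F13a1 and Plaur and in the endothelial and neutrophil lists.

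**Figure D4:**
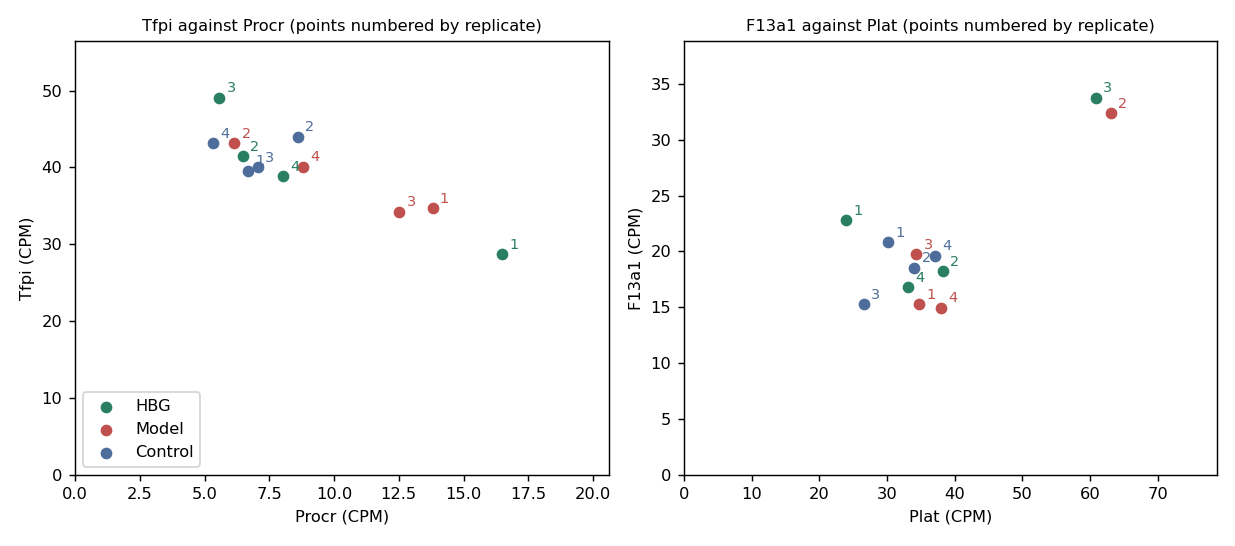
Level in CPM of Tfpi against Procr (left) and of F13a1 against Plat (right), with 1 point per library coloured by group and numbered by replicate. On the left HBG 1, Model 1 and Model 3 lie at high Procr and low Tfpi, and on the right Model 2 and HBG 3 lie apart from the other 10 libraries.

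The balance of anticoagulant and procoagulant receptor was read as the ratio of Thbd to F3 within each library, which does not move with the scaling. On the linear scale Thbd over F3 was 1.66, 11, 15.6 and 5.71 in HBG, 3.49, 6.55, 5.23 and 6.47 in Model, and 7.60, 3.15, 9.12 and 7.38 in Control. HBG 1 and HBG 3 held the lowest and the highest ratio of all 12 libraries, and the groups overlapped. On the log2 scale the ratio was 2.67 ± 1.42 in HBG, 2.40 ± 0.42 in Model and 2.66 ± 0.69 in Control (SD, 4 libraries each). It differed by -0.26 in Model against Control (two-sided exact permutation p = 0.486, adjusted p = 0.96), by 0.27 in HBG against Model (exact permutation p = 0.8, adjusted p = 0.96) and by 0.0022 in HBG against Control (exact permutation p = 1, adjusted p = 1). The smallest p that 4 against 4 libraries allow is 0.0286.

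Among 47 other coagulation and fibrinolysis genes, 37 passed the filter on low counts and none passed the edgeR test in any comparison, against the 0.348%, 0% and 0.151% of all genes given above. At an unadjusted p under 0.05 by edgeR the counts were 9 of 37 in Model against Control, 0 of 37 in HBG against Model and 6 of 37 in HBG against Control, against 11.7%, 2.43% and 8.25% of all genes. In Model against Control, 26 had higher and 11 lower means, with a median of 1.16-fold, while in HBG against Model 12 were higher and 25 lower, with a median of 0.911-fold. Over all genes, 51.5% had a higher mean in Model than in Control and 50.1% a higher mean in HBG than in Model. Groups stood apart for 8 of 37 in Model against Control, 0 of 37 in HBG against Model and 3 of 37 in HBG against Control. Of all genes tested, 8.72%, 1.13% and 6.33% stood apart in the same order. In Model against Control DESeq2 called 4 of the 41 listed genes to which it gave an adjusted p, against 2.12% of all genes given one. Limma-voom with sample quality weights called 8 of 37, against 6.05% of all genes tested. Both called 0 in the other comparisons. F2rl1, Anxa5 and Lrp1 were called higher by both tools. DESeq2 alone called Fgb, as lower. Limma-voom alone called F7 (log2 fold change 1.26, adjusted p = 0.044) and F10 (0.994, adjusted p = 0.0334) higher. It also called F2r (0.478, adjusted p = 0.0437), S100a10 (0.436, adjusted p = 0.0385) and Tgm2 (0.369, adjusted p = 0.0225) higher. By edgeR the adjusted p of the genes that limma-voom alone called lay between 0.236 (Tgm2) and 0.453 (S100a10).

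F2rl1, the protease-activated receptor that trypsin-like proteases and the tissue factor complex cut, had 25.1, 19.1, 23.5 and 24.98 CPM in HBG, 27.7, 25.8, 28.7 and 22.9 CPM in the Model libraries and 19.7, 18.1, 17.5 and 21.3 CPM in Control. All 4 Model libraries exceeded all 4 Control libraries. Its log2 fold change in Model against Control was 0.46 ± 0.12 (SE, edgeR adjusted p = 0.159). Anxa5, annexin V, which covers the phosphatidylserine on which clotting factors assemble, had 399 ± 64.2 CPM in HBG, 439 ± 60.7 CPM in Model and 303 ± 30.2 CPM in Control, with both HBG and Model above Control in every library. Its log2 fold change in Model against Control was 0.53 ± 0.14 (SE, edgeR adjusted p = 0.17). Lrp1, a receptor that clears complexes of plasminogen activators with their inhibitors, had 327 ± 66.2 CPM in HBG, 398 ± 51.1 CPM in Model and 278 ± 15.8 CPM in Control. Model stood above Control in every library there too, while HBG overlapped both.

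Tgm2, tissue transglutaminase, a relative of F13a1 that also crosslinks fibrin and matrix, had 359 ± 57.6 CPM in HBG, 394 ± 60.5 CPM in Model and 292 ± 9.32 CPM in Control, and its Model and HBG libraries all exceeded Control (edgeR adjusted p = 0.236 in Model against Control). F13a1 showed no such separation. In HBG against Model the smallest p on the list was that of Tfpi2, a homologue of Tfpi, with 1.82 ± 0.599 CPM in HBG, 3.18 ± 1.59 CPM in Model and 1.97 ± 0.533 CPM in Control (edgeR adjusted p = 1 in HBG against Model). Vkorc1, the vitamin K recycling enzyme that clotting factors need, had 20.98 ± 1.43 CPM in HBG, 24.4 ± 1.78 CPM in Model and 25.2 ± 4.56 CPM in Control.

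The fibrinogen chains, which liver makes, were low in all groups. Fgb had 0.186, 1.30, 0.0944 and 0.443 CPM in HBG, 0.213, 0, 0.181 and 0.760 CPM in the Model libraries and 9.48, 1.45, 4.70 and 0.838 CPM in Control. The count of 0 in Model 2 allows up to 0.153 CPM, a limit that covers counting error only. All Control libraries lay above all Model libraries, and the fitted log2 fold change was -3.81 ± 1.04 (SE, edgeR adjusted p = 0.185, DESeq2 adjusted p = 0.00868, limma-voom adjusted p = 0.0502). With 1 library left out the log2 fold change of Fgb lay between -4.9 (without Model 4) and -3.01 (without Control 1), and the edgeR adjusted p between 0.111 and 0.427. Fga had 1.184 ± 0.941 CPM in HBG, 1.09 ± 0.548 CPM in Model and 4.79 ± 4.26 CPM in Control. Control 1 and Control 3 were highest in both Fgb and Fga. Fgg, the remaining chain, is named to complete the set after its values were seen. It had 1.90 ± 0.963 CPM in HBG, 3.13 ± 1.06 CPM in Model and 4.07 ± 2.95 CPM in Control, the groups overlapped, and its log2 fold change in Model against Control was -0.38 ± 0.54 (SE, edgeR adjusted p = 0.826). Of 6 hepatocyte markers 3 passed the filter, and up to 3 were at 0 in a library. Their sum was 1.46 to 18.5 CPM in HBG, 2.47 to 16.5 CPM in Model and 3.01 to 60.3 CPM in Control. It was highest in Control 1, where albumin (Alb) was at 41.3 CPM. Control 3, the next in Fgb and Fga, had a sum of 15.8 CPM, below HBG 2 at 18.5 CPM and Model 4 at 16.5 CPM. The part of liver RNA in the fibrinogen values was not tested.

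**Figure D5:**
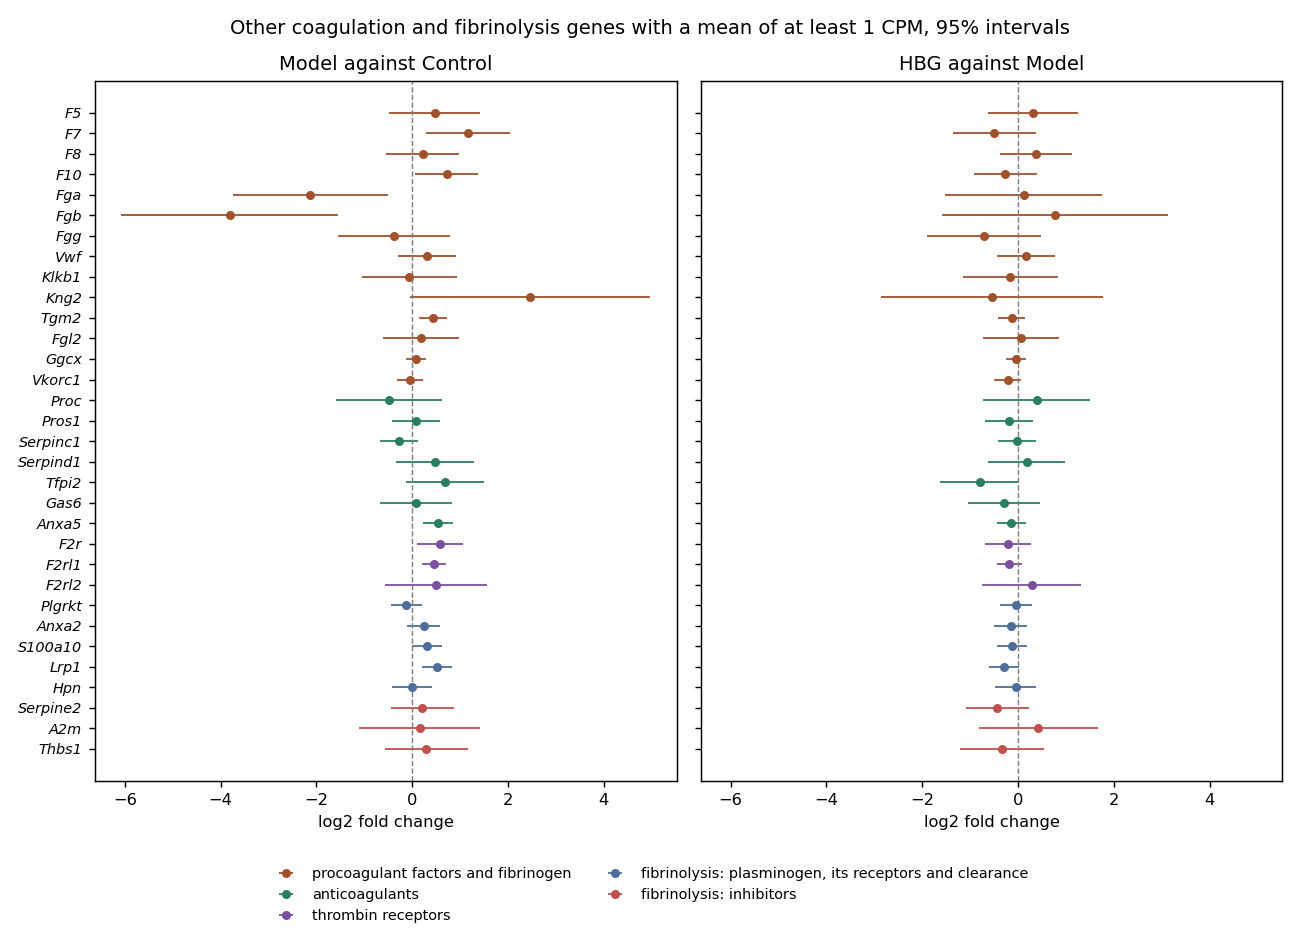
Fitted log2 fold change (x axes, on 1 scale) with 95% interval of 32 other coagulation and fibrinolysis genes with a mean of at least 1 CPM (rows, coloured by role), in Model against Control (left) and HBG against Model (right). On the left F2rl1, Anxa5, Lrp1 and Tgm2 lie above 0 and Fgb lies far below it, at -3.81, and no gene passed the edgeR test.

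The genes with the likest pattern were sought among 14120 named genes by Pearson's r of log2 CPM over the 12 libraries. As each is the highest of that many, the values describe these libraries and carry no test. Thbd was most like Tmem100 (r = 0.977), Tspan7 (0.969) and Vsnl1 (0.968). Procr was most like Ereg (0.969), Ccnd1 (0.965) and Speer4c (0.96), and Plat most like Usp32 (0.969), Med13l (0.964) and Plxdc2 (0.957). For Plau they were Golt1b (0.948), Rap2b (0.937) and Ckap2 (0.932), and for Tfpi Ackr4 (0.944), Mme (0.938) and Atp2c1 (0.938). For F13a1 they were Hrh2 (0.945), Pcdhga5 (0.935) and Cdk5rap2 (0.934), for F3 Eppk1 (0.933) and Tanc2 (0.928), and for Plaur Heatr5b (0.907) and Tesk1 (0.888). None of the 8 genes was among the nearest 3 of another.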

How the data were processed

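Lung RNA of 12 libraries was sequenced as paired reads of 150 bases from poly-A selected, strand-specific libraries, per the labels' protocols. The deposited table holds estimated counts per gene and library. Its header names no unit, which was read from the values: 10.0% to 15.1% per library were not whole. The aligners STAR 2.7.9a and HISAT2, the counters HTSeq and featureCounts 2.0.1, the trimmers fastp, cutadapt and Trimmomatic 0.39, and also DESeq2 1.34.0 and FastQC 0.11.9 are named per the submitters' processing notes, in no stated role, with the builds mm10 and GRCm39. The tool and annotation behind the deposited counts are not given in the sources used here.

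Estimated counts were rounded, scaled by TMM and filtered with filterByExpr. The edgeR 4.0.16 quasi-likelihood F test (R 4.3.3, limma 3.58.1) was fitted to all 12 libraries with a term for group alone. All p-values were two-sided, adjusted by Benjamini-Hochberg over all 17827 genes tested, at a threshold of 0.05. CPM values use the TMM factors, values per kilobase the gene length of the table, and standard errors come from the F statistic. Libraries of a group correlated at 0.925 to 0.984 in log2 CPM and none agreed within sampling noise (chi-square per degree of freedom from 16.4 to 141).

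The genes, the pathway list and the marker lists were chosen from textbook knowledge with earlier results of these data known. Pathway genes named are those past the edgeR threshold and the 5 of smallest edgeR p per comparison with a mean of at least 1 CPM. F7, F10, F2r and S100a10 are named because limma-voom called them. Likest genes were sought among genes with a mean of at least 1 CPM, leaving out predicted and clone-named ones. Thbd over F3 was compared by two-sided exact permutation, with p-values adjusted over 6 tests on 2 ratios. The other ratio, 1 gene of the pathway list and a few of the likest genes are not reported here, though the counts over the list include that gene. Alternatives were upper-quartile and RLE factors, DESeq2 1.42.0, limma-voom weighted by sample quality, no filter, a mean of at least 1 CPM, the 2 groups compared alone, a replicate block, offsets for GC content (known for 98.1% of tested genes) and length, each library left out, and 3 libraries left out together. The edgeR fit was checked on simulated counts.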

Additional observations from a re-analysis of the deposited data

Results flagged for a closer look

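Dixon's test was applied to 51 groups of 4 libraries. They covered the 8 genes, the reported pathway genes chosen by edgeR p, and the ratio of Thbd to F3. In 3 groups the highest or lowest library stood apart from the other 3. Chance alone sets apart about 1 in 20 such groups. Plaur was at 75.4 CPM in Model 2, against 45.4 to 47.9 CPM in the other Model libraries. Plat was at 63.1 CPM in the same library, against 34.4 to 38.1 CPM. F3 was at 177 CPM in Control 2, against 85.9 to 93.0 CPM in the other Control libraries.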

How the results depend on the processing

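None of the 8 genes passed the threshold under any of the 22 alternatives in any comparison, and 490 of their 528 recomputed fold changes kept their sign. The 528 include fits without a library of the group not compared, which can hardly move a fold change. Over all genes, 62 were called in Model against Control, 417 with DESeq2, 1079 with limma-voom and 25 with the replicate block, and 23 (without Control 3) to 100 (without HBG 3) with 1 library left out. In HBG against Model 0 were called, and 3 with DESeq2. In HBG against Control 27 were called, 198 with DESeq2, 101 with limma-voom and 17 with the replicate block, and 16 to 53 with 1 library left out. Of the pathway list, DESeq2 called 4 and limma-voom 8 in Model against Control. The replicate numbers do not pair the libraries: same-numbered libraries correlated at -0.357 to 0.481 in their deviations from the group means, and 3 of 12 matched their own number best.

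With 3 libraries left out together (Control 4, Model 2 and HBG 3), log2 fold changes of the opposite sign were -0.088 for F3 and -0.14 for F13a1 in Model against Control, 0.11 for F3 in HBG against Model, and -0.15 for Plaur and 0.020 for F3 in HBG against Control. Without the same libraries the log2 ratio of Thbd to F3 differed by -0.0608 in HBG against Model and by -0.36 in HBG against Control. In Model against Control the sign also turned for F3 with upper-quartile factors (-0.00823) and for Vkorc1 with GC and length offsets (0.067). In HBG against Control it turned for F3 (0.0607) and Thbd (0.012) with limma-voom, for Plau with the replicate block (0.067), for Tfpi with GC and length offsets (0.0364) and for Thbd over F3 with a pseudocount of 1 CPM (-0.000133). With 1 library left out, values in Model against Control ran from -0.19 to 0.35 for Plau, -0.091 to 0.33 for F3, -0.28 to 0.039 for Thbd, -0.15 to 0.28 for F13a1 and -0.17 to 0.050 for Vkorc1. In HBG against Model they ran from -0.39 to 0.16 for Plau, -0.42 to 0.13 for Plat, -0.40 to 0.11 for F3, -0.12 to 0.35 for Thbd, -0.63 to 0.0034 for Procr, -0.066 to 0.18 for Tfpi, -0.095 to 0.46 for F13a1, -0.28 to 1.87 for Fgb, -0.42 to 0.43 for Fga and -0.17 to 0.91 for Thbd over F3. In HBG against Control they ran from -0.24 to 0.17 for Plau, -0.025 to 0.26 for Plaur, -0.010 to 0.46 for Plat, -0.38 to 0.20 for F3, -0.25 to 0.22 for Thbd, -0.048 to 0.58 for Procr, -0.20 to 0.049 for Tfpi, -0.35 to 0.0094 for Tfpi2 and -0.43 to 0.65 for Thbd over F3. The cause of these changes was not tested. A missed threshold with 4 libraries a group does not show that a gene was equal between groups.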
